A study of Rattus norvegicus with 29 samples.

Results

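In cultured rat kidney tubule cells, 53 transcripts had a lower level after 24 h of acetaminophen while the 3 other compounds of the study left them near the control. They were chosen by measured levels, out of 28420 transcripts in the files. The level was the TPM (a count divided by the transcript's effective length, which is its length less about 1 fragment, and scaled to the library's total). The change L was the log2 of the ratio of group means at 24 h, compound over control, with 1 TPM added to each mean. A transcript was taken when its mean over the 5 control libraries lay between 1 and 500 TPM, when L was at most -1.3 for acetaminophen, and when L lay within 0.5 of 0 for gentamicin, TCDD and trichloroethylene. The rule allowed up to 150 transcripts, and 53 met it. The level window held 13730 transcripts and 755 of them (5.50%) met the acetaminophen limit, so the 53 are 7.02% of those lowered by acetaminophen. The members are numbered here by rank, with member 1 at the lowest acetaminophen L.

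Acetaminophen is an analgesic that is oxidised in liver and kidney to a reactive quinone imine, which glutathione traps until the supply runs low. The proximal tubule is the segment of the nephron that reclaims most of the filtered glucose, amino acids, phosphate and water, and it takes up and metabolises many drugs. Gentamicin is an aminoglycoside antibiotic that enters these cells by endocytosis and collects in lysosomes. TCDD is a dioxin, and the aryl hydrocarbon receptor is its target in the cell. Trichloroethylene is an industrial solvent whose glutathione conjugates are processed in the tubule. The amount of a transcript in a cell is set by its synthesis and its decay, and sequencing of total RNA from a culture reads both together. In bulk RNA, fewer cells of a type and less RNA per cell cannot be told apart.

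The study sequenced primary rat epithelial cells of this segment in 29 libraries. Treatment was acetaminophen, gentamicin, TCDD, trichloroethylene or none (control), each for 6 h or 24 h. Each of the 10 groups has 3 libraries, except the control at 6 h with 2 (replicates 2 and 3). All groups share the cell type. The sources used here give no strain, dose or vehicle. They do not state that the replicates are separate cultures or animals, so p-values measure the spread between these libraries, which may be technical. Library totals ran from 8243698 to 11446612 estimated counts. The files give transcript identifiers without gene names, and the reference table used here matched 0 of them. The cell type was therefore not checked against marker genes, no gene function is assigned to a member, and 2 members are named by identifier.

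The 24 h libraries of every compound and of the control chose the members, so their 24 h values are a description without a test. Summed over the 53 members, the level was 983 ± 9.24 TPM with acetaminophen at 24 h. It was 3141 ± 53.2 TPM with gentamicin, 3317 ± 294 TPM with TCDD and 3608 ± 36.8 TPM with trichloroethylene, against 3369 ± 208 TPM in the control (SD, n = 3 each). At the level of single members, acetaminophen left between 0.99% and 39.0% of the control mean, with a median of 28.2%. 5 members were under 10% of the control and 19 were under 25%. For 52 of the 53, all 3 acetaminophen libraries lay below the other 12 libraries of 24 h. That separation held for 5.87% of the level window, and the rule used these libraries. The exception was member 44, with 2.22, 4.90 and 2.37 TPM with acetaminophen and 4.77 TPM in the lowest gentamicin library.

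**Figure D1:**
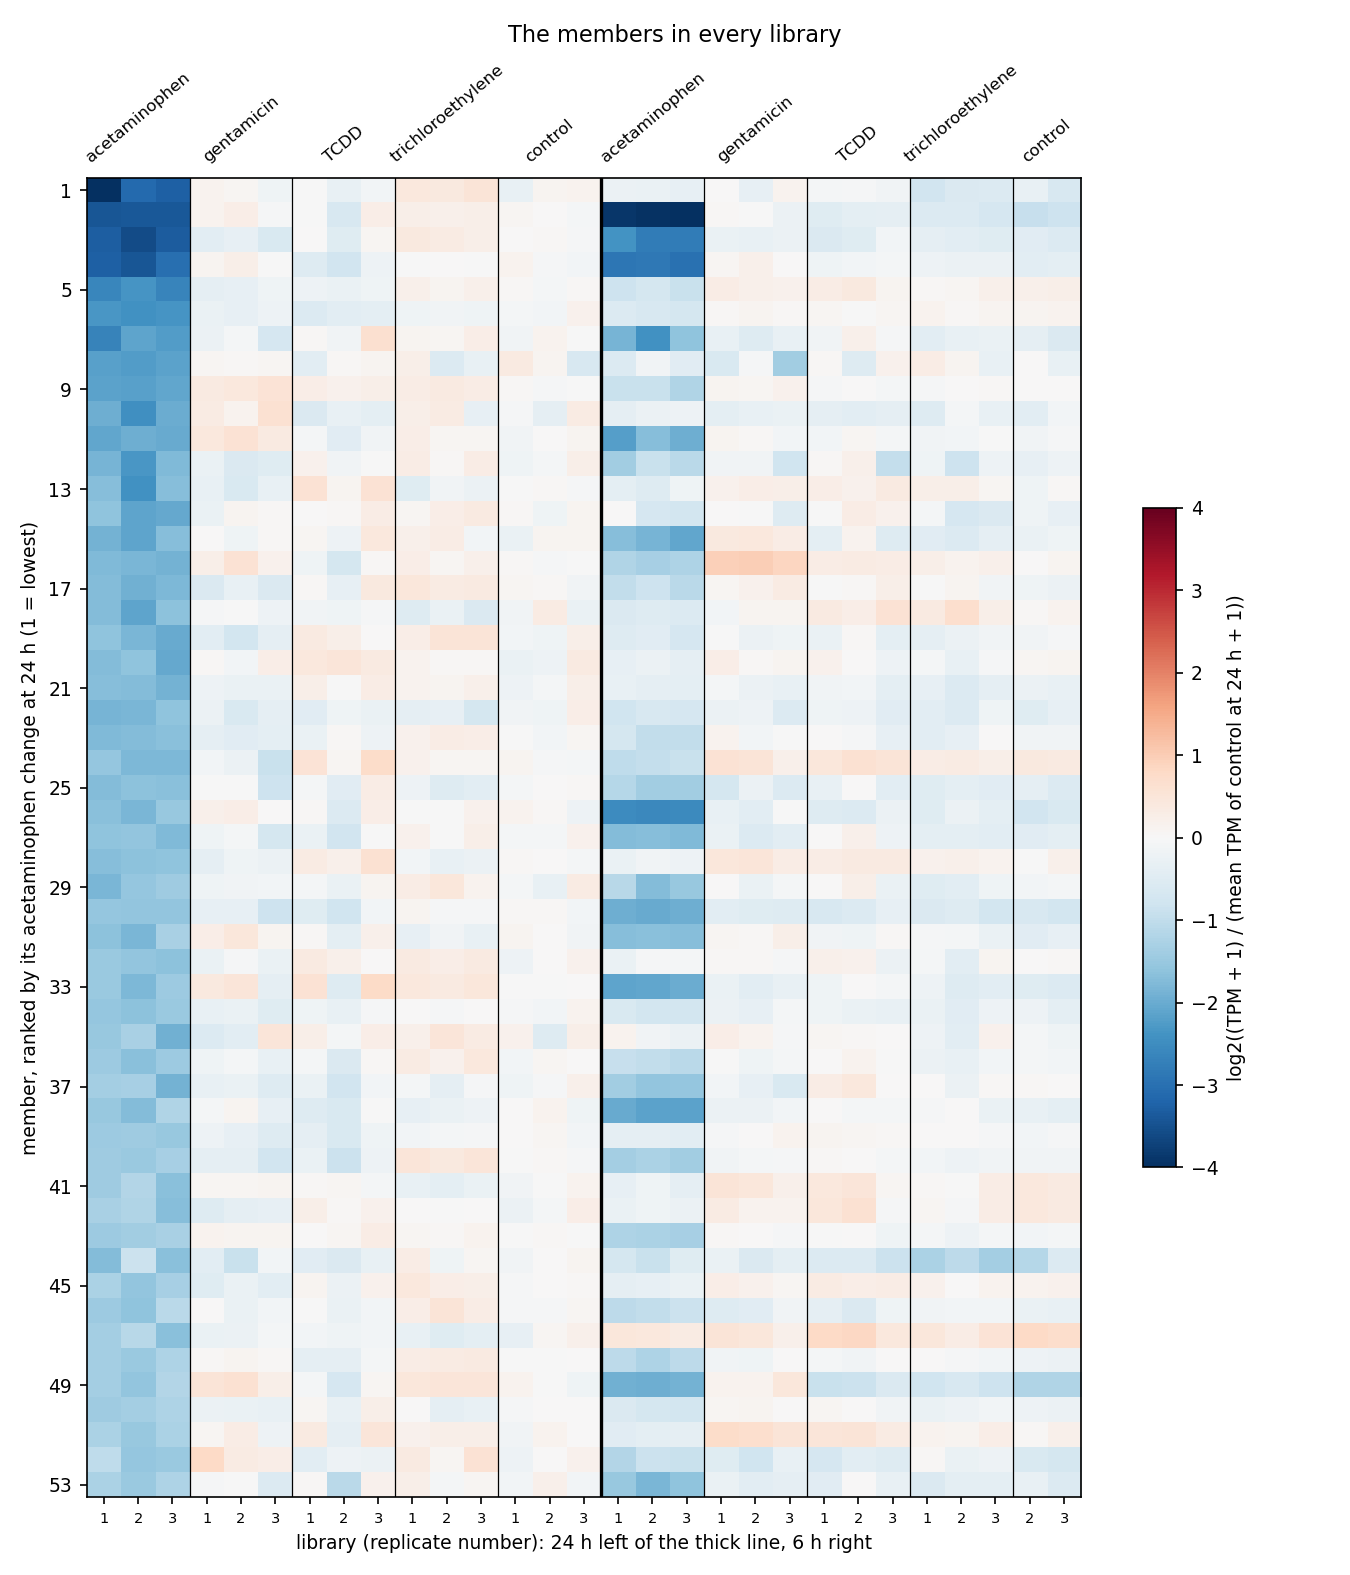
Level of the 53 members (down the page, by rank) in each of the 29 libraries (across, by group and replicate number), as log2((TPM + 1) / (mean TPM of the 24 h control + 1)), blue below and red above that control. The 3 acetaminophen columns at 24 h are blue in every member, which the rule required of their mean, and the 3 acetaminophen columns at 6 h are blue in some members and near white in others.

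Member 1, a transcript of 1070 bases, had the lowest L, -3.55. Its level at 24 h was 0.925, 5.07 and 4.38 TPM with acetaminophen, against 41.8, 55.7 and 56.5 TPM in the control. The first acetaminophen library stands below the other 2, and all 3 lie far under every other library of that time. Member 2 (ENSRNOT00000016289, 4985 bases) had 1.84, 1.94 and 1.94 TPM with acetaminophen, against 31.4, 30.0 and 27.9 TPM in the control, with an L of -3.41. Member 3 (2911 bases) had 0.972, 0.635 and 0.935 TPM with acetaminophen, against 18.4, 18.8 and 17.8 TPM in the control. In both the groups are far apart. The replicates of a group lie close together, save that the second acetaminophen library of member 3 stands below the other 2. Member 8 (1206 bases) was almost absent, with 0.0488, 0 and 0.0614 TPM with acetaminophen, against 5.01, 4.12 and 2.01 TPM in the control. Those acetaminophen values correspond to estimated counts of 0.384, 0 and 0.420, under a floor of 3 counts per library. Set at that floor, 0.394 TPM, member 8 was at least 9.42-fold lower with acetaminophen than the control mean of 3.71 TPM. This bound covers counting error only, and the reads of member 8 were shared with other transcripts in 28 of the 29 libraries.

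Abundant transcripts are among the members too. Member 34 (ENSRNOT00000000052, 1810 bases) had 94.2, 88.6 and 99.2 TPM with acetaminophen at 24 h, against 271, 257 and 310 TPM in the control, with an L of -1.56. Member 5 (729 bases) had 34.5, 40.8 and 33.2 TPM with acetaminophen, against 220, 204 and 219 TPM in the control. The groups do not overlap in either, and member 5 was left with the smaller part of its control level. Member 6 (1171 bases) had 41.1, 38.9 and 40.1 TPM with acetaminophen, against 199, 196 and 238 TPM in the control. Among the 53, the mean over the 5 control libraries ran from 2.49 to 259 TPM. It was under 10 TPM in 11 members and over 100 TPM in 10, and its median was 36.6 TPM, beside 16.8 TPM over the level window.

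The limits cut through a continuous spread. The last member inside had an acetaminophen L of -1.32 and the first transcript outside -1.27, and 45 more would enter between -1.3 and -1. The largest distance from 0 inside the limit was 0.496 for gentamicin, and the smallest outside was 0.507. For TCDD these were 0.481 and 0.536, and for trichloroethylene 0.479 and 0.520. Over the level window, acetaminophen had a median L of 0.10, gentamicin -0.22, TCDD -0.40 and trichloroethylene 0.01. With the TPM scaled by TMM factors, these medians were -0.09, -0.01, -0.32 and -0.08 in the same order of compounds. With that scaling the rule gave 82 transcripts, 41 of them among the 53 and 41 others. The 12 members lost left because 7 passed the upper limit for gentamicin, 3 passed it for TCDD and 2 fell under the lower limit for trichloroethylene. All 53 stayed lowered by acetaminophen under either scaling.

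The limits for the other compounds removed most of the 755. Of these, L was under -0.5 for gentamicin in 489 (64.8%, beside 34.7% of the level window). It was under -0.5 for TCDD in 551 (73.0%, beside 45.7% of the window) and for trichloroethylene in 305 (40.4%, beside 14.8% of the window). At least 1 of the 3 was under that limit in 656 (86.9%, beside 60.1% of the window), and all 3 were in 205 (27.2%, beside 7.40% of the window). All these L share the 3 control libraries of 24 h, so nothing is read from the overlap. The 53 members are what remained once these and the 116 with a compound above 0.5 were set aside. That acetaminophen alone lowered the members means that the others stayed within that limit, not that they left the members without change. In the fit of the counts at 24 h, gentamicin was called lower in 6 members and higher in 12, where 30.5% and 29.1% of all tested transcripts were called. Trichloroethylene was called lower in 7 and higher in 10 (19.9% and 20.7% of all tested), with fitted log2 changes no lower than -0.60. TCDD was called lower in 0 and higher in 28 (33.0% and 33.9% of all tested), with a median fitted log2 change of 0.29, while the median L of the members was -0.08. These calls share libraries with the rule, and nothing is read from them about the members.

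The 6 h libraries of the compounds had no part in the choice, and the 6 h controls entered only through the level window, so the 6 h changes were tested. At 6 h acetaminophen already lowered most members. In a quasi-likelihood fit with edgeR across 15990 transcripts, 39 of the 53 were called lower than the control and 0 higher at an adjusted p under 0.05, where 24.5% of all tested transcripts were called lower and 24.2% higher. At an unadjusted p under 0.05 edgeR again gave 39 lower and 0 higher, where 8619 of the 15990 had such a p in either direction. After adjustment DESeq2 gave 39 lower and 0 higher, and limma on log2(TPM + 1) gave 41 lower and 0 higher. The median log2 change of the members was -0.74, with quartiles of -1.43 and -0.33 and a range from -3.98 to 0.25, while the median of all tested transcripts was 0.00. The change was negative in 49 of the 53. In 20 members the called fall was 2-fold or more, beside 9.02% of all tested transcripts.

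The same fall shows in the levels. The summed member level at 6 h was 2023 to 2093 TPM over the acetaminophen libraries, with a mean of 2069 ± 39.2 TPM (SD, n = 3). In the 2 control libraries it was 3284 and 3293 TPM. The 3 libraries of acetaminophen at 6 h therefore lie below both controls, and above the acetaminophen libraries of 24 h. For 47 of the 53 members, all 3 acetaminophen libraries of 6 h lay below both controls, which held for 42.5% of the level window. For 42 of the 53 they lay below all the other 11 libraries of 6 h, which held for 32.0% of the window. Fragment length, taken as a transcript's length less its effective length, was 249 ± 2.56 bases in the acetaminophen libraries of 6 h (SD, n = 3), against 260 ± 4.31 bases in the control (SD, n = 2). With fragment length as a covariate in the edgeR fit, 42 members were called lower and 0 higher with acetaminophen at 6 h.

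**Figure D2:**
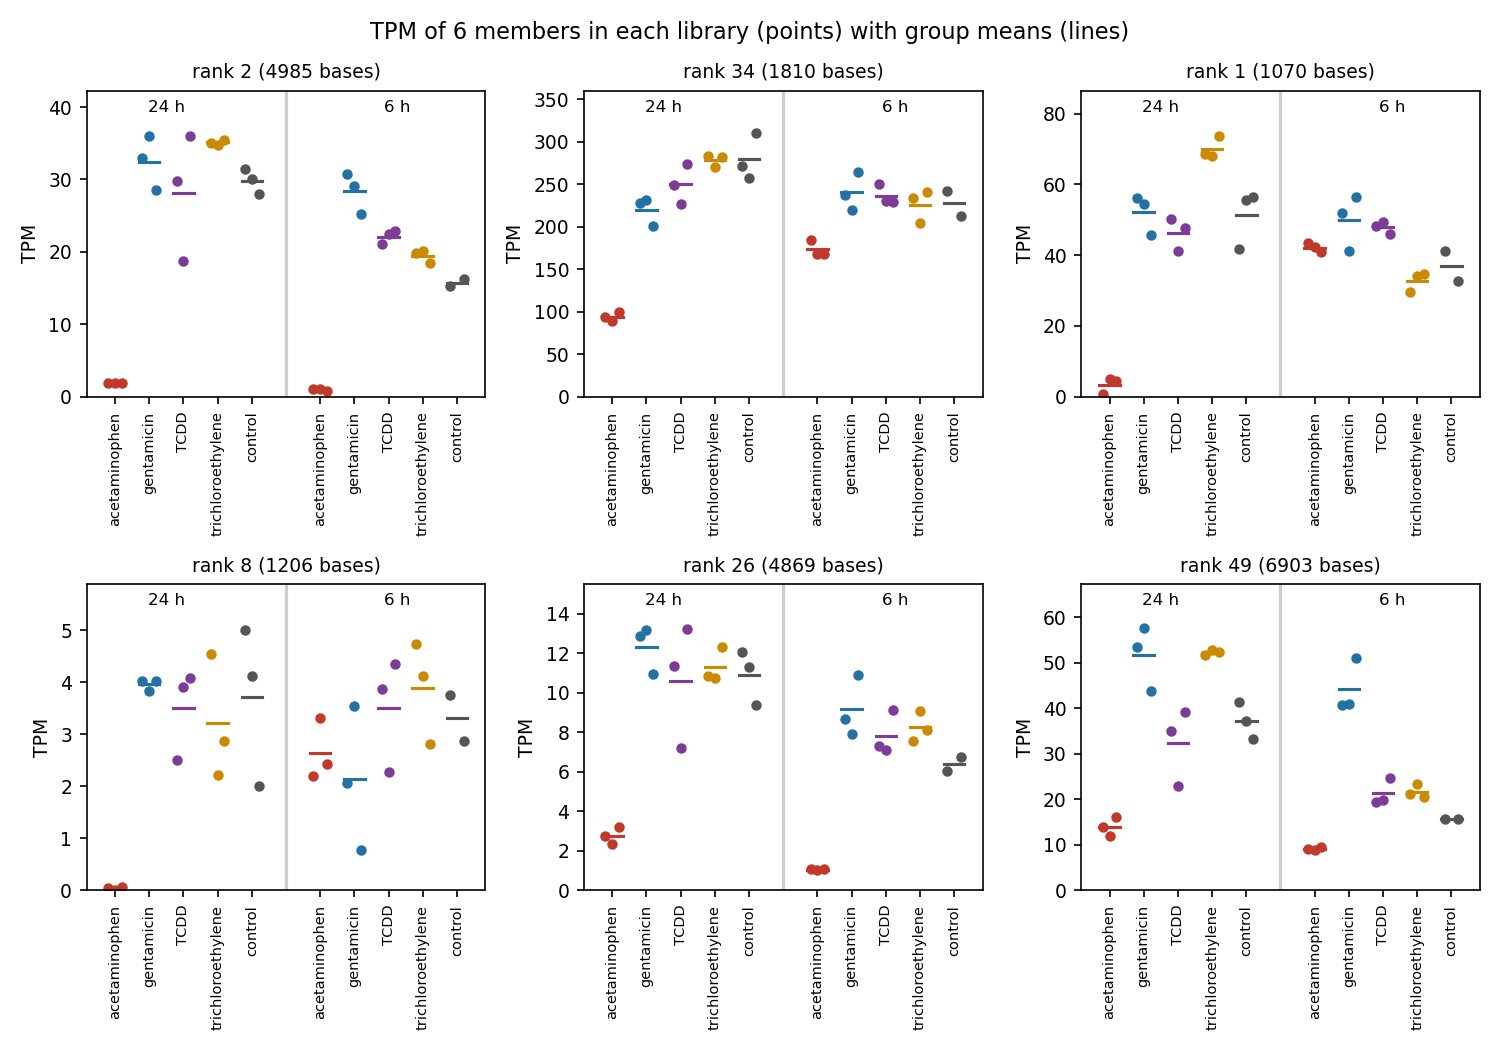
TPM of 6 members in each library (points) with the group mean (line), 24 h left of the grey line and 6 h right of it, each y axis linear and starting at 0. Members 2 and 34 are those named by identifier, and members 1, 8, 26 and 49 were picked after their values were seen. Acetaminophen is below the control at 24 h in all 6, while at 6 h it is at the control's level in member 1 (40.9 to 43.3 TPM) and far under it in member 2 (0.797 to 1.06 TPM).

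The 53 members fell into 3 sets by what the 6 h test gave. The first set is the 20 members that fell 2-fold or more within 6 h. Their median log2 change at 6 h was -1.59, which left a median of 31.8% of the control level at 6 h and 26.2% at 24 h. Member 2 changed most. Its level at 6 h was 1.06, 1.01 and 0.797 TPM with acetaminophen, against 15.3 and 16.3 TPM in the control. The groups are widely apart and the replicates agree closely, with a log2 change of -3.98 ± 0.14 by edgeR (SE, adjusted p = 8.3e-17). Member 3 had 2.70, 1.80 and 1.81 TPM with acetaminophen at 6 h, against 13.2 and 12.2 TPM in the control, a log2 change of -2.53 ± 0.14 by edgeR (SE, adjusted p = 3.9e-13). Member 26 (4869 bases) had 1.07, 1.01 and 1.05 TPM with acetaminophen, against 6.03 and 6.75 TPM in the control, a log2 change of -2.56 ± 0.15 by edgeR (SE, adjusted p = 8.4e-13). Member 26 lies at a low level in every group, yet its 3 acetaminophen libraries hardly differ among themselves.

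The first set also holds members of short length and low level. Member 15 (1183 bases) had 1.34, 1.10 and 0.782 TPM with acetaminophen at 6 h, against 5.27 and 5.68 TPM in the control, a log2 change of -2.25 ± 0.27 by edgeR (SE, adjusted p = 1.9e-07). Member 7 (627 bases) had 5.83, 3.62 and 7.05 TPM with acetaminophen, against 18.5 and 15.5 TPM in the control. The acetaminophen replicates of member 7 are more scattered than those of the long members, and none reaches the control. The highest control level in this set was that of member 43 (1949 bases), with 42.7, 41.8 and 40.2 TPM with acetaminophen at 6 h, against 93.9 and 95.8 TPM in the control. Its 24 h levels were 36.1, 37.9 and 40.7 TPM with acetaminophen, against 100, 105 and 99.4 TPM in the control. In member 43 the groups are thus apart at both times.

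The second set is the 19 members that were called lower at 6 h by under 2-fold. Their median log2 change was -0.65, and they stood at a median of 61.5% of the control at 6 h and 33.6% at 24 h. Member 5 had 120, 132 and 114 TPM with acetaminophen at 6 h, against 248 and 252 TPM in the control, a log2 change of -0.95 ± 0.14 by edgeR (SE, adjusted p = 3.1e-06). Member 9 (1859 bases) had 64.8, 65.4 and 52.8 TPM with acetaminophen, against 124 and 124 TPM in the control, a log2 change of -0.96 ± 0.11 by edgeR (SE, adjusted p = 4.9e-08). Both are part way at 6 h to the level they had at 24 h, since member 9 then had 26.8, 26.5 and 28.2 TPM with acetaminophen, against 125, 119 and 121 TPM in the control. Member 6 had 143, 135 and 129 TPM with acetaminophen at 6 h, against 228 and 234 TPM in the control, a log2 change of -0.70 ± 0.12 by edgeR (SE, adjusted p = 1.7e-05). Member 48 (974 bases) had 98.2, 85.7 and 96.5 TPM with acetaminophen, against 176 and 171 TPM in the control. At 24 h member 48 had 78.3, 71.9 and 84.9 TPM with acetaminophen, against 200, 201 and 206 TPM in the control. It thus stood at 53.8% of the control mean at 6 h and 38.7% at 24 h.

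Member 34, the most abundant member by its 24 h control among those called at 6 h, is near the lower edge of this set. At 6 h it had 184, 168 and 168 TPM with acetaminophen, against 242 and 213 TPM in the control. The groups do not overlap, and the gap is of the size of the spread between the 2 controls. The log2 change was -0.33 ± 0.10 by edgeR (SE, adjusted p = 0.0084). Without replicate 2 of the control at 6 h it was -0.23 (edgeR adjusted p = 0.17), so the call rests on that library.

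The third set is the 14 members that were not called at 6 h. Their median log2 change was -0.18, between -0.47 and 0.25, and they stood at a median of 84.8% of the control at 6 h and 26.7% at 24 h. Member 1 is the clearest of them. At 6 h it had 43.3, 42.3 and 40.9 TPM with acetaminophen, against 41.3 and 32.8 TPM in the control, and the groups overlap. Its log2 change at 6 h was 0.25 ± 0.21 (SE, edgeR adjusted p = 0.35), although it had the lowest L of all members at 24 h. Member 10 (702 bases) had 10.8, 12.1 and 12.3 TPM with acetaminophen at 6 h, against 10.4 and 13.1 TPM in the control. At 24 h it had 2.96, 1.76 and 2.86 TPM with acetaminophen, against 13.7, 11.0 and 18.0 TPM in the control, so the gap is seen at the later time. Member 21 (1438 bases) had 161, 155 and 153 TPM with acetaminophen at 6 h, against 170 and 161 TPM in the control, and 60.2, 58.7 and 52.8 TPM with acetaminophen at 24 h, against 173, 188 and 235 TPM in the control. A missed threshold does not show that these 14 were unchanged at 6 h. The SE of member 8, for one, was 0.46 around a log2 change of -0.27 (edgeR adjusted p = 0.67).

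**Figure D3:**
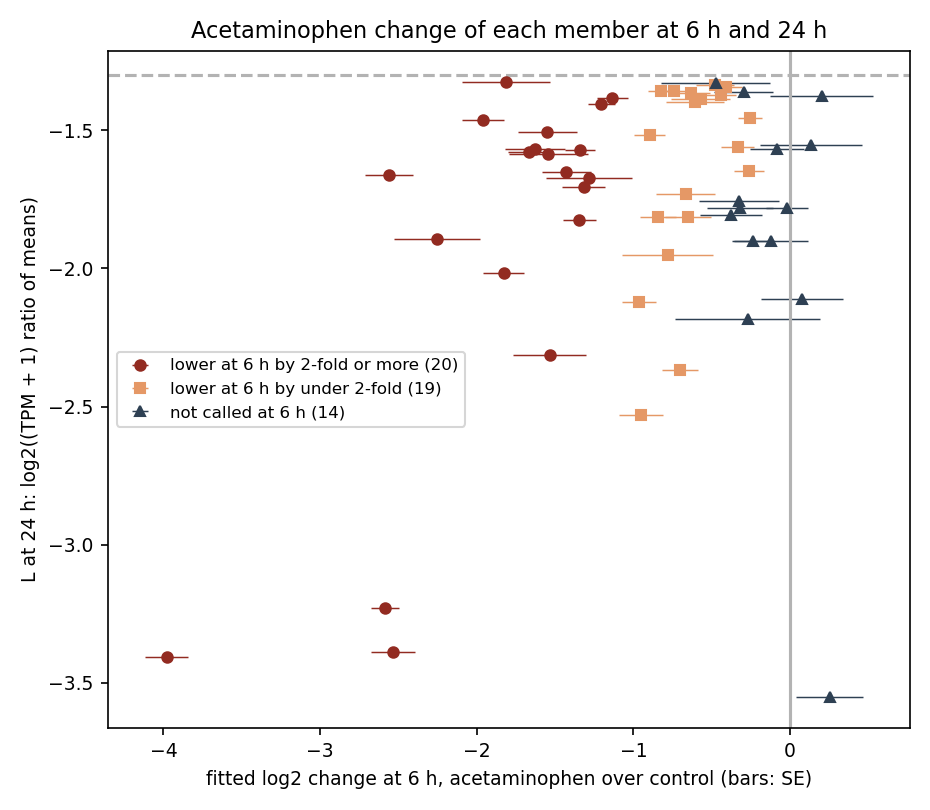
Each point is a member, with its fitted log2 change at 6 h (acetaminophen over control, bar = SE) across and its L at 24 h down the page, coloured by the 3 sets, and the dashed line marks the limit of -1.3 in the rule. The 4 lowest members at 24 h lie at -3.98, -2.59, -2.53 and 0.25 at 6 h, so similar 24 h changes go with very different 6 h changes.

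Within the acetaminophen cultures, the mean at 24 h was below the mean at 6 h in 44 members and above it in 9. In 35 members all 3 libraries of 24 h lay below all 3 of 6 h, which held for 12.3% of the level window, and the rule used the 24 h libraries. The 9 that were higher at 24 h than at 6 h were members 2, 26, 27, 30, 31, 33, 38, 49 and 53, of which 8 belong to the set that fell 2-fold or more at 6 h. Member 38 (2156 bases) had 5.89, 4.90 and 7.54 TPM with acetaminophen at 24 h, against 3.86, 3.48 and 3.41 TPM with acetaminophen at 6 h. Member 26 had 2.76, 2.34 and 3.21 TPM with acetaminophen at 24 h, against 1.07, 1.01 and 1.05 TPM with acetaminophen at 6 h. In both the times do not overlap, and the control was higher at 24 h too, with 12.1, 11.3 and 9.38 TPM for member 26 at 24 h, against 6.03 and 6.75 TPM in the control at 6 h. This difference between times within acetaminophen was not tested.

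The control itself differed between the times in some members. In control cultures, 7 members were called lower at 24 h than at 6 h (12.6% of all tested transcripts) and 7 higher (12.3% of all tested), by edgeR at an adjusted p under 0.05. These counts are near the background, and the 24 h controls also entered the rule. Member 49 (6903 bases) had 41.3, 37.1 and 33.3 TPM in the control at 24 h, against 15.7 and 15.6 TPM at 6 h, with a log2 change of 1.10. Member 47 (1337 bases) went the other way, with 102, 134 and 146 TPM in the control at 24 h, against 223 and 208 TPM at 6 h, and a log2 change of -0.92. For members 49 and 47 the acetaminophen L at 24 h is thus measured from a control that differs between the times. Every member's acetaminophen mean at 24 h was also below its control mean of 6 h.

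The same test was run for the other compounds at 6 h. With gentamicin, 0 members were called lower and 7 higher by edgeR, where 4.88% and 8.34% of all tested transcripts were called. At an unadjusted p under 0.05 edgeR gave 2 lower and 9 higher, where 4062 of the 15990 tested transcripts had such a p in either direction. After adjustment DESeq2 gave 1 lower and 7 higher, and limma gave 0 lower and 7 higher. The median log2 change of the members with gentamicin was -0.02, beside 0.01 over all tested. With TCDD edgeR called 0 members lower and 0 higher, where 0.0% of all tested transcripts were called in each direction. At an unadjusted p under 0.05 edgeR gave 0 lower and 3 higher with TCDD, where 1124 of the 15990 had such a p in either direction. DESeq2 and limma called 0 members with TCDD after adjustment. With trichloroethylene edgeR called 0 lower and 0 higher (0.0% of all tested in each direction). At an unadjusted p under 0.05 edgeR gave 5 lower and 1 higher with trichloroethylene, where 2070 of the 15990 had such a p in either direction. DESeq2 and limma called 0 members with trichloroethylene after adjustment. With TCDD the median log2 change of the members was 0.03, beside 0.03 over all tested, and 20 of the 53 were negative. With trichloroethylene it was -0.13, beside 0.01 over all tested, and 38 of the 53 were negative. The share of negative changes over all tested transcripts was not counted, so nothing is read from these counts of negative members. No transcript in the whole table passed for these compounds at 6 h, so their counts of 0 say nothing particular about the members.

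**Figure D4:**
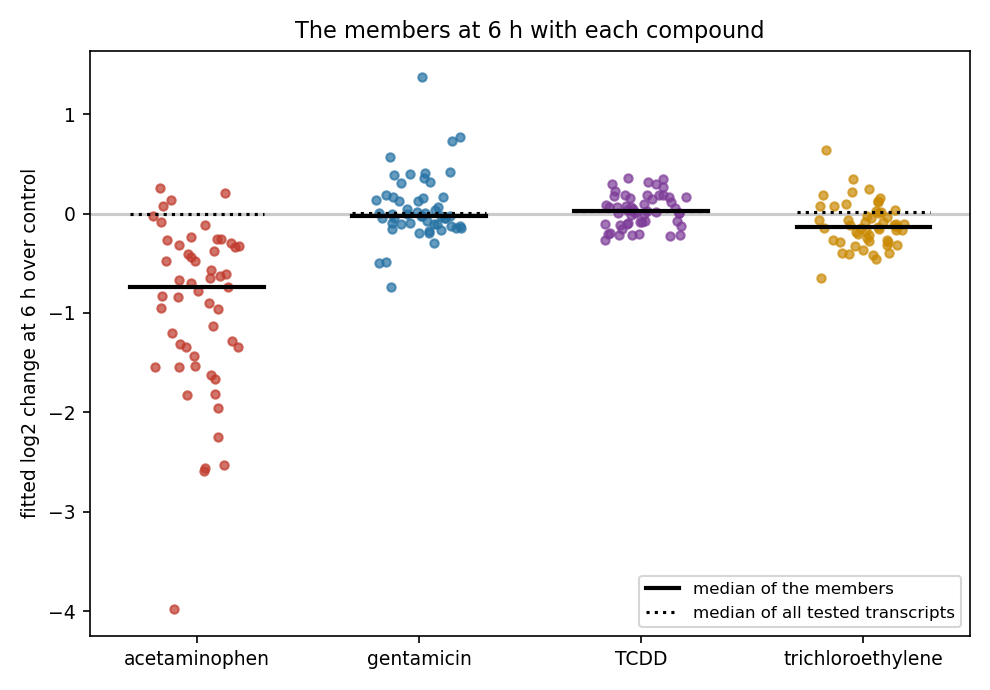
Fitted log2 change of each member at 6 h for the 4 compounds over the control of 6 h, 1 point per member, with the median of the members (solid line) and of all tested transcripts (dotted line). Acetaminophen spreads from -3.98 to 0.25, while gentamicin, TCDD and trichloroethylene centre near 0, with single members up to 1.37 for gentamicin.

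The comparisons with the control share the same 2 control libraries, so acetaminophen was also set against each compound at 6 h. Against gentamicin, 39 members were called lower with acetaminophen and 0 higher by edgeR, where 28.3% of all tested transcripts were called lower, and the median log2 difference was -0.79. Against TCDD, 40 were called lower with acetaminophen and 0 higher (27.9% of all tested were lower), with a median of -0.78. Against trichloroethylene, 35 were called lower with acetaminophen (28.5% of all tested) and 2 higher (27.8% of all tested), with a median of -0.68. In all, 33 of the 53 were called lower with acetaminophen than the control and each of the 3 compounds, which held for 18.8% of all tested transcripts. The 2 that were higher with acetaminophen than with trichloroethylene were members 1 and 44, with log2 differences of 0.57 ± 0.19 (SE, edgeR adjusted p = 0.014) and 0.85 ± 0.31 (SE, edgeR adjusted p = 0.021). Member 44 (907 bases) had 5.56, 4.86 and 6.65 TPM with acetaminophen at 6 h, against 3.51, 4.20 and 3.22 TPM with trichloroethylene.

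The members called higher with gentamicin at 6 h were 7 (13.2%, beside 8.34% of all tested), namely members 2, 4, 16, 26, 31, 49 and 51. The number called in either direction ran from 4 to 11 under the alternatives tried. The gentamicin and acetaminophen changes of these 7 members share the 2 control libraries of 6 h and are given side by side. Member 49 had 40.9, 41.0 and 51.0 TPM with gentamicin at 6 h, against 15.7 and 15.6 TPM in the control, a log2 change of 1.37 ± 0.11 by edgeR (SE, adjusted p = 3.1e-09). With acetaminophen at 6 h member 49 had 9.07, 8.81 and 9.42 TPM, a log2 change of -0.74 ± 0.11 against the control (SE, edgeR adjusted p = 2.6e-06). Member 49 had the largest gentamicin change of the 53 at 6 h, and its acetaminophen libraries lie below the control while its gentamicin libraries lie above. Member 16 (4119 bases) had 51.9, 53.5 and 48.3 TPM with gentamicin, against 26.5 and 28.7 TPM in the control. Member 2 had 30.8, 29.2 and 25.3 TPM with gentamicin, against 15.3 and 16.3 TPM in the control, a log2 change of 0.73 ± 0.11 by edgeR (SE, adjusted p = 5.5e-05). At 24 h, where the rule kept every member within 0.5, member 2 had 32.9, 36.0 and 28.5 TPM with gentamicin, against 31.4, 30.0 and 27.9 TPM in the control.

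Transcript length was not part of the rule. The members ran from 594 to 6903 bases with a median of 1894, close to the 1956 of the level window, and 10 were under 1000 bases. The 3 sets differed in length. The median was 2963 bases in the set that fell 2-fold or more at 6 h, 1859 bases in the set that fell by less, and 1138 bases in the set that was not called, whose longest member had 1965. Over all tested transcripts the same calls had medians of 2163.5, 2231 and 1790 bases, so the not-called transcripts were also the shorter there, by a smaller margin. A longer transcript collects more reads at the same TPM, and the part of read number in these lengths was not tested.

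**Figure D5:**
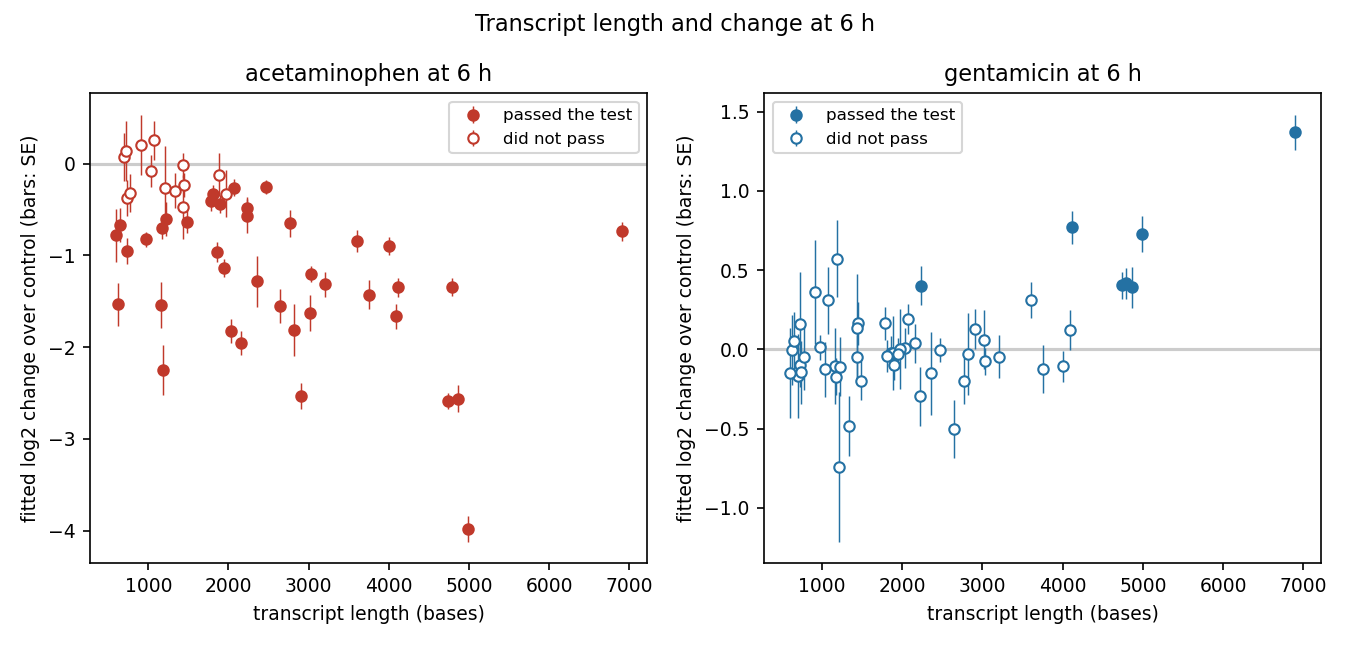
Fitted log2 change at 6 h against transcript length (bases) for the 53 members, acetaminophen and gentamicin over control (bar = SE), filled where called by edgeR. The 6 longest members, from 4119 to 6903 bases, are all below 0 with acetaminophen (-3.98 to -0.74) and all above 0 with gentamicin (0.39 to 1.37). They are also all above 0 with TCDD (0.12 to 0.35) and trichloroethylene (0.01 to 0.34), which are not drawn.

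The 6 longest members, each of 4119 bases or more, were 6 of the 7 called higher with gentamicin at 6 h, and the remaining one, member 51, has 2235 bases. The length of 4119 was chosen after the values were seen. Of the 47 shorter members, 1 was called higher with gentamicin. Over all tested transcripts of at least 4119 bases, 11.5% were called higher with gentamicin, and 7.86% of the shorter ones were. The 6 long members also lay above 0 with TCDD (0.12 to 0.35) and trichloroethylene (0.01 to 0.34), where 0 were called. The median log2 change of all tested transcripts of that length was 0.11 with gentamicin, 0.15 with TCDD and 0.16 with trichloroethylene. The median log2 change of the 6 long members was 0.57 with gentamicin, 0.17 with TCDD and 0.17 with trichloroethylene. All these changes share the 2 control libraries of 6 h, and gentamicin was not tested against TCDD or trichloroethylene. All 6 long members were called lower with acetaminophen at 6 h, with a median log2 change of -1.95, and over all tested transcripts of that length 27.3% were called lower, against 24.1% of the shorter ones. The gentamicin libraries of 6 h had a fragment length of 254 ± 6.93 bases (SD, n = 3), against 260 ± 4.31 bases in the control (SD, n = 2). With fragment length as a covariate, 11 members were called in either direction with gentamicin in place of 7, and without replicate 2 of the control at 6 h 4 were.

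The members were set beside the other 702 transcripts of the window that acetaminophen lowered to the same limit at 24 h. Of those, 666 could be tested at 6 h and 499 (74.9%) were called lower with acetaminophen, while 39 of the 53 members (73.6%) were. The median log2 change at 6 h was -0.74 in the members and -1.19 in the others. With gentamicin at 6 h, 0 members were called lower and 7 (13.2%) higher, while 82 (12.3%) of the others were called lower and 31 (4.65%) higher. The members' median level in the control was 36.6 TPM, and that of the others 17.4 TPM, with median lengths of 1894 and 1803 bases. These differences between the members and the others were not tested.

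Some member values rest on reads that several transcripts share. The counts of 30 members (56.6%) were whole numbers in every library, beside 59.6% of all tested transcripts, and 23 had counts that were not whole in at least 1 library, which is the mark of reads divided between transcripts. In 19 members such counts were found in 20 or more libraries. Of the members given above, members 1, 8 and 43 had them in 28 of the 29 libraries and member 3 in 26. Member 4 had them in 24, and members 26, 38 and 49 in all 29. The level of any of the 19 may include a shift between transcripts of near-identical sequence. Members 2, 5, 6, 7, 9, 10, 15, 16, 21, 34, 44, 47, 48 and 51, given above, had whole counts throughout. Depth limited the lowest values, as 9 members had under 10 counts in some acetaminophen library of 24 h.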

How the data were processed

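RNA of 29 libraries (10 groups of treatment and time, from the sample labels) was read as deposited. The authors assigned reads to transcripts with kallisto 0.43, per the submitters' processing notes. Per the file headers, the deposited tables give for each of 28420 transcripts an estimated count, a TPM value, the length and the effective length. The authors' estimated counts need not be whole, and 20.0% were not (tolerance 1e-06). The authors' TPM values are these counts per effective length, scaled to the library total. Not given in the sources used here are the release of the transcript set, read trimming and strandedness.

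Members were found from the deposited TPM by the rule in the text. For tests, estimated counts were rounded, filtered with filterByExpr (minimum count 10), which kept 15990 transcripts and 99.9% of counts and all 53 members, and TMM-scaled. A robust quasi-likelihood model with a coefficient per group was fitted to all libraries by edgeR 4.0.16 under R 4.3.3 (19 residual degrees of freedom). Calls used a Benjamini-Hochberg adjusted p under 0.05 over all tested transcripts. The steps were tested on simulated data. No replicates were duplicates (chi-square per degree of freedom 3.01 to 30.3). DESeq2 1.42.0 and limma 3.58.1 on log2(TPM + 1) were alternatives.

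The members, the rule and the comparisons were chosen with earlier results of these data known. The identifiers named are, among members called lower at 6 h with at least 3 counts in every acetaminophen and control library of 6 h, the one with the highest 24 h control mean and the one with the lowest 6 h change. No member was called higher with acetaminophen than the control at 6 h. Other members described singly were chosen after their values were seen. The markers of cell types listed for the study were not used, as the files pair no names with identifiers. The labels give no batch.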

Additional observations from a re-analysis of the deposited data

How the results depend on the processing

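Under the tools, filters, scalings, covariates and left-out libraries of the compared groups tried, the members called lower with acetaminophen at 6 h numbered between 35 and 43 against the control, 35 and 44 against gentamicin, 36 and 44 against TCDD, and 32 and 41 against trichloroethylene. The median log2 change against the control stayed between -0.79 and -0.72. Leaving out each of the 5 compared libraries in turn gave 35 to 39 lower against the control. Members called with gentamicin at 6 h were 11 with fragment length as a covariate, in place of 7, and 4 to 6 without 1 library. For trichloroethylene, 2 were called with only the compared groups in the fit, in place of 0. The number of members depended on the limits. It was 98 with an acetaminophen L of at most -1, 8 with the other compounds within 0.25, 82 with TPM scaled by TMM factors (41 shared with the 53), 61 with a pseudocount of 0.1 (48 shared), 48 with a window of 5 to 500 TPM, and 47 to 56 without 1 library of 24 h (40 to 53 shared). Replicate numbers did not pair the libraries, as deviations of same-numbered libraries correlated between -0.08 and 0.08. With a replicate block, 39 members were called lower with acetaminophen at 6 h and the median log2 change was -0.74. The call of member 34 (ENSRNOT00000000052) ended without replicate 2 of the control at 6 h, at -0.23 (edgeR adjusted p = 0.17).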
